A study of Sesamum indicum with 195 samples.

Results

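In unstressed sesame roots of both genotypes, 16 of the 20271 tabulated genes had a level that repeated 24 h apart at 4 pairs of hours. Among these pairs the genes were highest at 20 and 44 h or at 24 and 48 h. They were selected on the control samples alone, as log2(mean TPM + 1), where TPM is a transcript level corrected for gene length and scaled to one total per sample. The 2 values taken 24 h apart had to differ by less than 0.8 at each of 4 pairs of hours (8 and 32, 16 and 40, 20 and 44, 24 and 48 h), and the 4 pair means had to span at least 1.5. Of 18178 genes whose mean TPM reached 1, 12917 repeated in this way in both genotypes, 35 also had the span, and 16 of those peaked late. Dropping the demand that the pairs repeat would have given 176 genes.

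The study followed roots of a waterlogging-tolerant sesame genotype, ZZM2541 (R2G), and a susceptible one, Ezhi No. 2 (EG), at flowering through 36 h of waterlogging and 12 h of drainage. Each genotype had 45 waterlogged samples from 2 to 36 h, 18 drained samples from 38 to 48 h, 30 control samples from 4 to 48 h and 3 samples at 0 h, and EG had 3 further samples of plants labelled as wilting at 48 h, which the study's methods call dead. Every condition held 3 replicates, each the root of 1 plant. Hours count from the start of the treatment, and the time of day of 0 h is not given in the sources used here. Total TPM per sample lay between 999096 and 999827, and since TPM keep no read counts and the study's read totals were not used here, no counting interval is given. The lowest correlation between replicates of a condition was 0.92, in EG roots at 28 h of waterlogging. Each sample was a whole root, in which fewer cells of a type and less RNA per cell cannot be told apart.

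Plants keep daily time with a circadian clock, a set of transcription factors that repress and activate each other in a loop and pass the rhythm on to a large share of the genes in a cell. In roots the clock takes its cues mostly from the shoot, through sugars and other mobile signals, and from temperature. Waterlogging fills the pores of the soil and slows the supply of oxygen, and root cells then turn to fermentation and save energy by lowering the transcription and translation of many genes. The reference annotation used here pairs the 16 identifiers with positions and gives them no descriptive name, so no function is attached to any of them.

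All 16 genes were protein-coding and lay on 11 of the linkage groups of sesame genome v1.0, the build of the files. All 16 identifiers were found in the RefSeq annotation of that assembly. The closest pair, LOC105176065 (linkage group 13, 1333430 to 1340852) and LOC105176018 (linkage group 13, 773626 to 774076), was 559354 bases apart. Gene length had a median of 2519 bases, between 451 and 7423, against 3615 bases over the tested genes. The mean level over all samples had a median of 10.1 TPM, between 1.09 and 99.9 TPM, against 16.1 TPM over the tested genes. LOC105176065 overlaps LOC105176082 and LOC105164378 (linkage group 6, 11553807 to 11556983) overlaps LOC105164379. Whether strand was used in counting is not given in the sources used here, so reads of these 2 genes may be shared with their partners.

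Among the control pair means that selected them, 7 genes peaked at 20 and 44 h in both genotypes, 3 peaked at 24 and 48 h in both, and 6 peaked at 24 and 48 h in EG but at 20 and 44 h in R2G. None had the opposite order. The span of the pair means was 1.90 in EG and 3.01 in R2G for LOC105172438 (linkage group 10, 13249539 to 13250302), which had the largest mean span. At the other end was LOC105165085 (linkage group 6, 18127339 to 18128035), with 1.55 in EG and 1.61 in R2G. Just inside the limit of 1.5 lay LOC105159758 at 1.51 and LOC105161525 at 1.52, and just outside it LOC105165732 at 1.496 and LOC105177860 at 1.49. On the limit of 0.8 for the repeat, LOC105176620 at 0.74 and LOC105165085 at 0.73 lay inside and LOC105164196 at 0.803 and LOC105175007 at 0.805 outside. These values chose the genes and are given as a description.

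**Figure D1:**
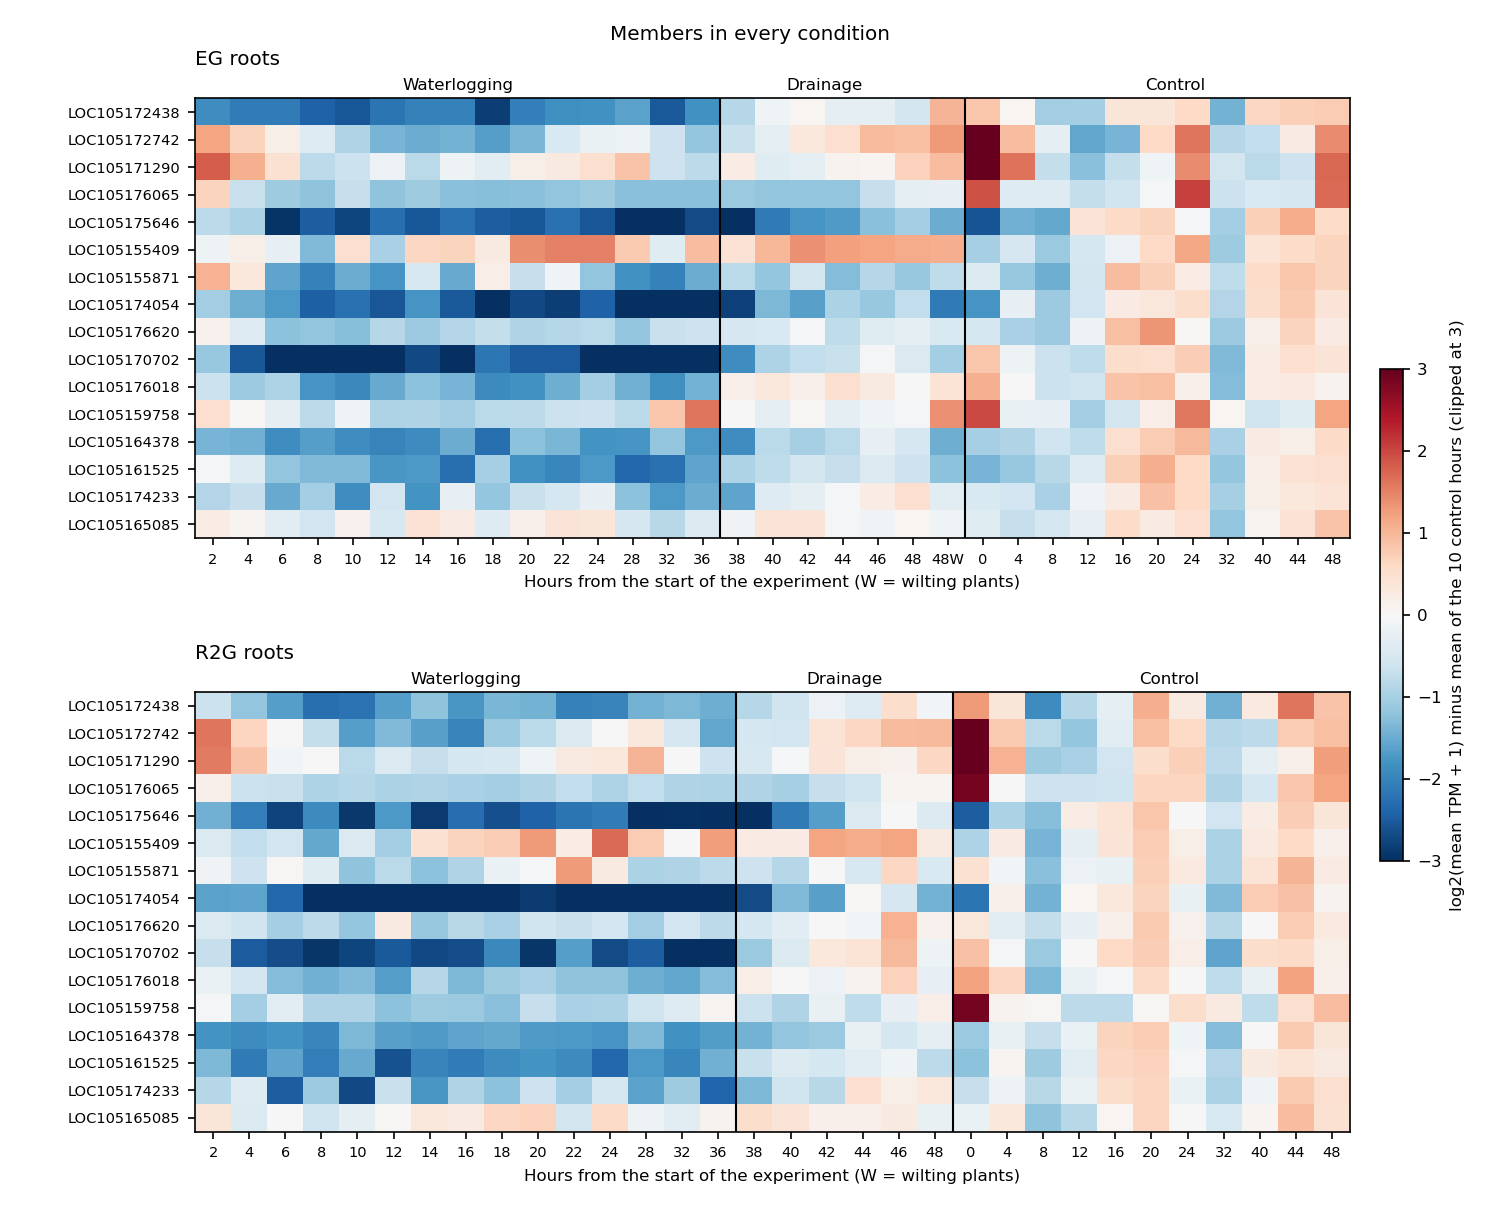
Level of the 16 genes in control, waterlogged and drained roots of EG and R2G over time in hours, drawn in colour as log2(mean TPM + 1) minus the mean over the 10 control hours of that genotype, clipped at 3 (W marks wilting plants). The control columns at 20, 24, 44 and 48 h, which selected the genes, are the high ones, and most genes are low through waterlogging from 6 h on.

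The genes had their low point at different hours. In EG, 12 were lowest at 8 and 32 h and 4 were lowest at 16 and 40 h. The 4 were LOC105172742 (linkage group 10, 15809842 to 15811477), LOC105171290 (linkage group 1, 17010586 to 17013720), LOC105176065 and LOC105159758 (linkage group 4, 1032270 to 1037899), and they are called the late-trough genes here. In R2G 1 of them, LOC105159758, was lowest at 16 and 40 h, and the others at 8 and 32 h. The name thus rests on the EG pair means at 8 and 32 h against 16 and 40 h. These were close for LOC105176065, at 0.77 and 0.76, and for LOC105171290, at 2.22 and 2.09. They were further apart for LOC105172742, at 1.60 and 1.10, and for LOC105159758, at 1.08 and 0.60. The 12 h control was outside the pairs, and the EG means of these genes were lower there than at 16 h. At 12 and 16 h they were 0.528 and 0.709 TPM for LOC105172742, and 2.02 and 3.40 TPM for LOC105171290. They were 0.493 and 0.599 TPM for LOC105176065, and 0.127 and 0.544 TPM for LOC105159758. In unstressed EG roots LOC105172742 had 2.95, 3.27 and 1.95 TPM at 8 h and 0.636, 1.00 and 0.492 TPM at 16 h. It had 5.62, 4.39 and 7.40 TPM at 20 h and 14.4, 10.8 and 12.4 TPM at 24 h. A day later the low hours changed order, with means of 1.46 TPM at 32 h and 1.69 TPM at 40 h. LOC105176065 also was lower at 32 h, with 0.559 TPM against 0.786 TPM at 40 h, while LOC105171290 and LOC105159758 were lower at 40 h. Among the other genes, LOC105174054 (linkage group 1, 18545487 to 18546912) had 39.3, 28.2 and 34.2 TPM at 8 h in the same roots. It had 78.4, 113 and 72.7 TPM at 16 h, 93, 87.2 and 98.1 TPM at 20 h and 120, 95.3 and 105 TPM at 24 h. LOC105174054 was thus already high at 16 h, when LOC105172742 was near its lowest level.

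The samples at 0 h and the controls at 4 and 12 h took no part in the selection, and 0 h lies 24 h before the 24 h control. Differences below are on the log2(TPM + 1) scale from limma, one model over all 195 samples with both genotypes averaged. A gene is said to have risen or fallen where the adjusted p was under 0.05 and the size at least 1. At 0 h against the 12 h control, 7 of the 16 genes rose and 2 fell, beside 13.6% of all tested genes that rose and 7.34% that fell. Their median difference was 0.33, against 0.28 over all tested genes. The median was close to that of the whole table, and the 16 differences ran from -2.91 to 4.74.

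All 4 late-trough genes were among the 7 that rose at 0 h. LOC105172742 had 41.9, 37.5 and 35.4 TPM in EG and 48.8, 48.6 and 68.7 TPM in R2G at 0 h. In the 12 h controls it had 0.323, 0.674 and 0.586 TPM in EG and 0.81, 1.24 and 0.958 TPM in R2G. The hours were far apart in every sample, and the difference was 4.74 (SE 0.15, adjusted p = 2.9e-58, limma). LOC105171290 had 28.0 to 112 TPM in EG and 50 to 91.6 TPM in R2G at 0 h, against 0.711 to 3.28 TPM in EG and 2.09 to 4.11 TPM in R2G at 12 h, a difference of 4.03 (SE 0.31, adjusted p = 6.2e-24). LOC105159758 differed by 3.27 (SE 0.23, adjusted p = 2.6e-26) and LOC105176065 by 3.05 (SE 0.17, adjusted p = 1.7e-35). For LOC105172742 all 6 levels at 0 h also stood above all 6 control levels at 24 h, whose highest was 14.4 TPM.

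Of the other 12 genes, 3 rose and 2 fell at 0 h. LOC105172438 differed by 1.90 (SE 0.33, adjusted p = 1.8e-07), LOC105176018 by 1.55 (SE 0.21, adjusted p = 1.9e-10) and LOC105170702 (linkage group 9, 5346520 to 5353655) by 1.23 (SE 0.23, adjusted p = 1.7e-06). In the opposite direction, LOC105175646 (linkage group 12, 4728003 to 4729882) had 1.72, 5.29 and 0.745 TPM in EG and 3.11, 6.24 and 0.507 TPM in R2G at 0 h. At 12 h it had 13.5, 50.4 and 17.7 TPM in EG and 14.9, 35.5 and 28.9 TPM in R2G, without overlap, and it fell by 2.91 (SE 0.27, adjusted p = 4.5e-18). LOC105174054 fell by 1.79 (SE 0.26, adjusted p = 1.8e-09). Both had their highest control pair mean at 20 and 44 h and were lower at 0 h than at 24 h. The hours 0 and 24 h also lie 24 h apart, but the selection did not ask this pair to repeat. For some other genes it did not repeat. In EG the means at 0 and 24 h were 32.2 and 146 TPM for LOC105155409, and 3.22 and 15.8 TPM for LOC105161525. For LOC105170702 they were closer, at 66 and 61.7 TPM.

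Between the 4 h and the 12 h controls, 2 genes were higher at 4 h and 1 was lower, beside 1.35% and 1.58% of all tested genes. LOC105172742 had 6.70, 8.37 and 7.27 TPM in EG and 7.22, 5.24 and 7.78 TPM in R2G at 4 h, far above every 12 h sample, a difference of 2.21 (SE 0.15, adjusted p = 2.8e-25, limma). LOC105171290 had 15.6, 30.2 and 18.4 TPM in EG and 15.7, 17.9 and 15.4 TPM in R2G at 4 h, a difference of 2.48 (SE 0.31, adjusted p = 1.1e-10). LOC105175646 ran the other way, with 3.73, 9.64 and 7.60 TPM in EG and 6.82, 15.1 and 11.6 TPM in R2G at 4 h, and it fell by 1.41 (SE 0.27, adjusted p = 3.9e-05). In R2G its 4 h and 12 h samples overlapped, at 15.1 and 14.9 TPM. At 0, 4 and 12 h the late-trough genes LOC105172742 and LOC105171290 thus stood at high, middle and low levels, while LOC105175646 was low at 0 h and high at 12 h. The same 12 h controls enter the comparisons with 0 h, with 4 h and with waterlogging at 12 h, so these results are not independent.

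**Figure D2:**
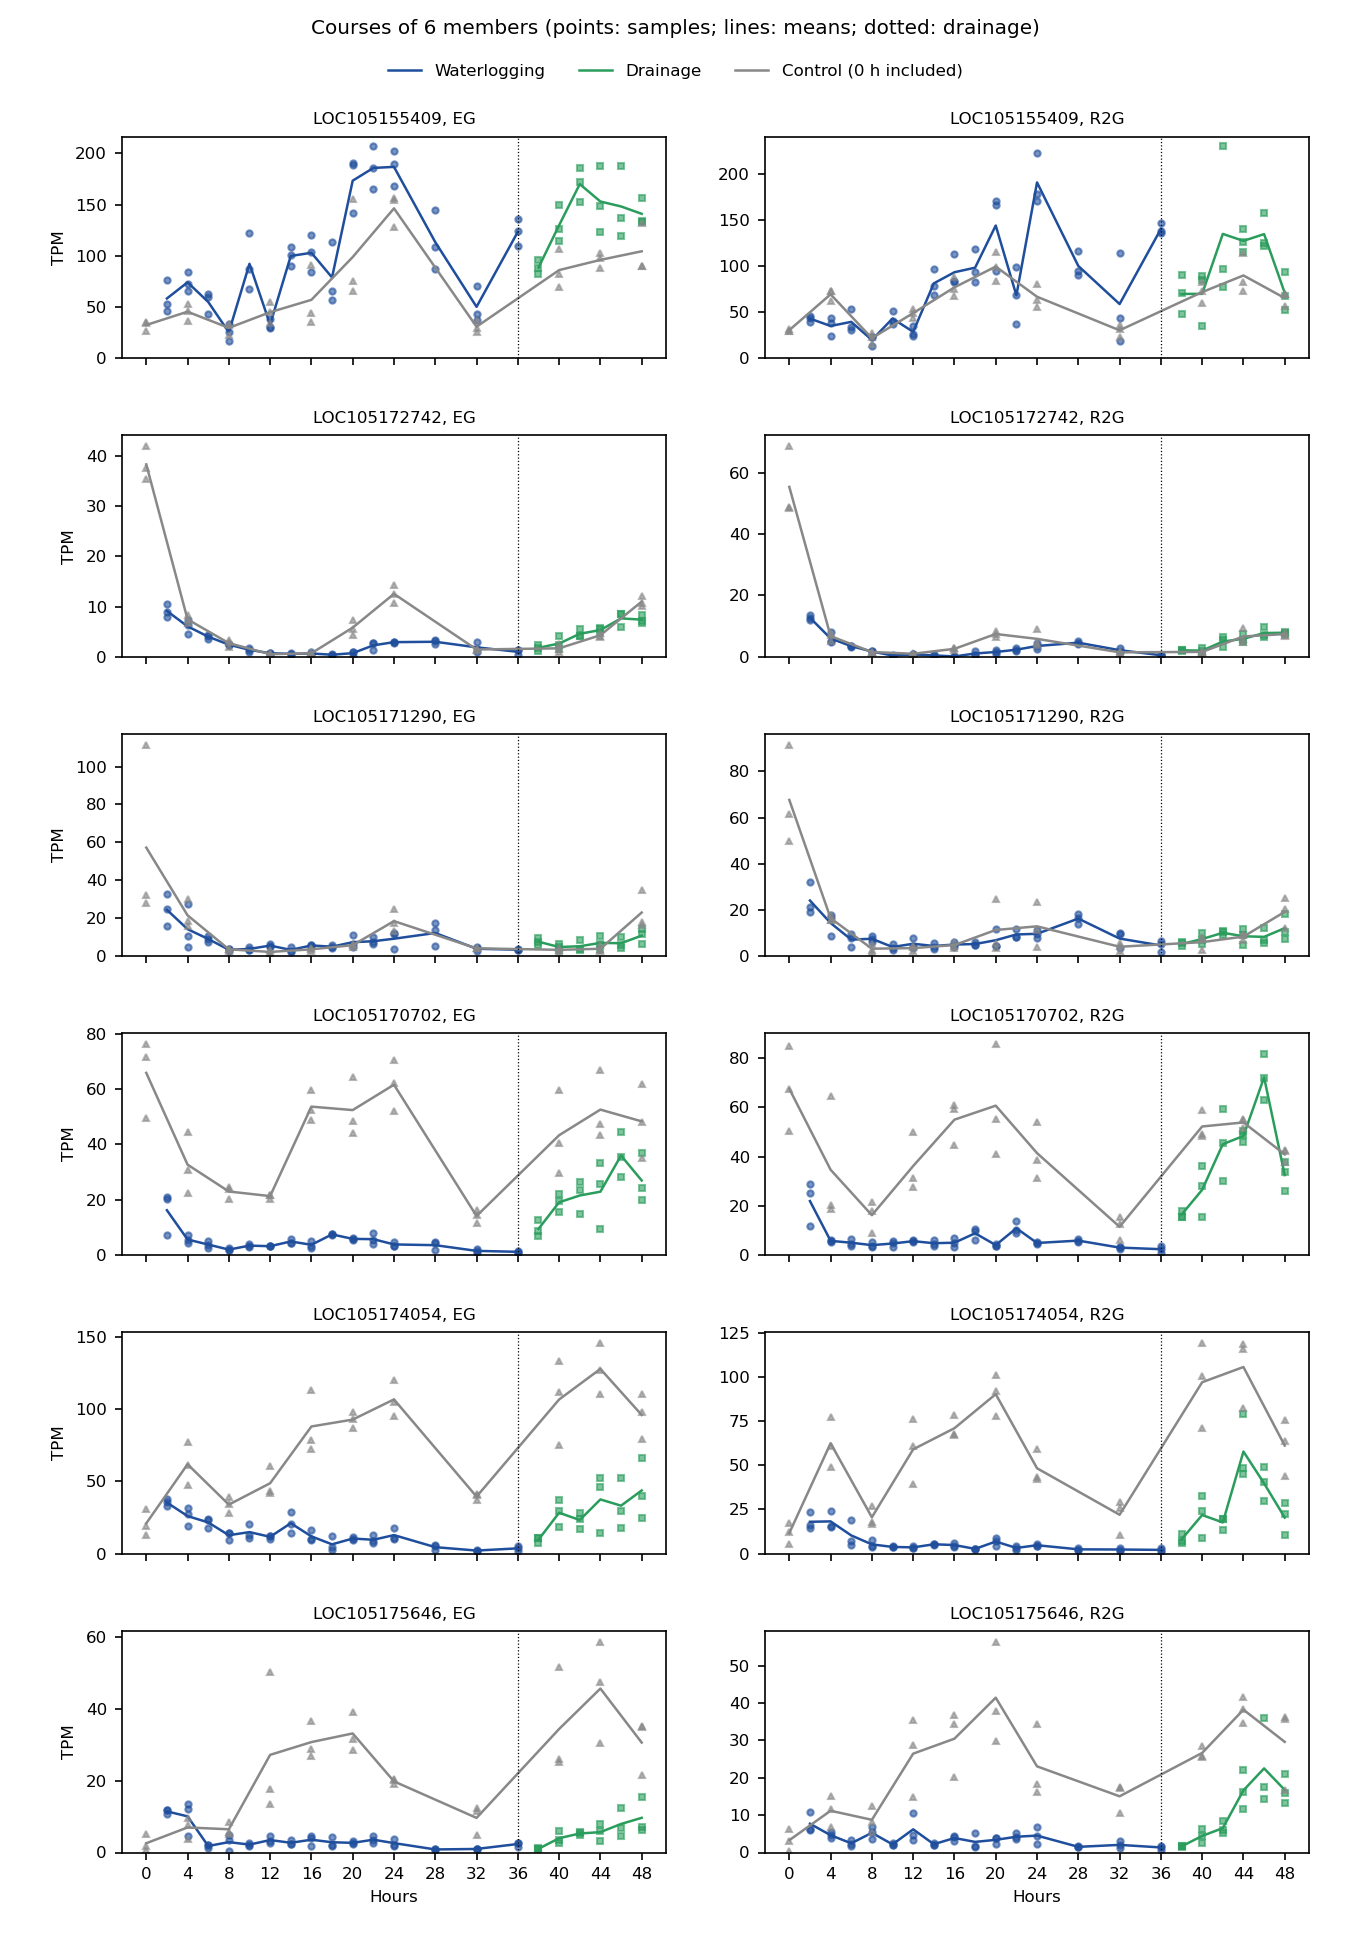
TPM against hours from the start of treatment in EG and R2G for genes whose courses differ, with points for single samples, lines through the means of 3 replicates, and separate colours for waterlogged, drained and control roots, with 0 h drawn on the control line and a dotted line at drainage. LOC105155409 has its highest waterlogged mean at 24 h in both genotypes, with steps up and down before it and a drop at 22 h in R2G. The waterlogged means of LOC105174054 and LOC105170702 lie below the control means at every shared hour from 4 to 32 h.

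Under waterlogging the late top of most of these genes was small. Over 8, 16, 20 and 24 h the hourly means spanned a median of 0.79 in waterlogged EG roots, against 2.05 in control EG roots, and a median of 0.50 in waterlogged R2G roots, against 1.80 in control R2G roots. The waterlogged span was below the control span in 15 of 16 genes in EG and 14 of 16 in R2G. The control spans are what the selection asked for, so a smaller span elsewhere is a description, and over all tested genes the medians were 0.56 waterlogged and 0.59 control in EG, and 0.61 waterlogged and 0.50 control in R2G. From 2 to 24 h of waterlogging, 11 genes in EG and 11 in R2G had their highest level at 2 or 4 h. A top at 20, 22 or 24 h was seen for 4 genes in EG and 3 in R2G. These counts of top hours were not made over all tested genes, and nothing is read from them. Hours under water and hour of the day cannot be told apart in these samples.

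Waterlogged samples took no part in the selection, so their late hours could be tested against their early ones. At 20 and 24 h against 8 and 16 h, 1 of the 16 genes rose and none fell, beside 0.66% of all tested genes that rose and 1.63% that fell. At an unadjusted p under 0.05 in limma, 7 of the 16 were higher and 0 lower, beside 16.2% and 39.3% of all tested genes, and LOC105175646 had the lowest difference, -0.14. The other 15 differences were positive, beside 35.6% of all tested genes, with a median of 0.27 over the 16, against -0.12 over all tested genes.

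The gene that rose was LOC105155409 (linkage group 2, 5934616 to 5938148). In waterlogged EG roots it had 141, 188 and 190 TPM at 20 h and 203, 168 and 189 TPM at 24 h, against 16.9, 32.8 and 25.6 TPM at 8 h and 84.2, 104 and 120 TPM at 16 h. In waterlogged R2G roots it had 171, 166 and 95.1 TPM at 20 h and 224, 179 and 171 TPM at 24 h, against 13.4, 22.4 and 22.8 TPM at 8 h and 83.2, 113 and 83.4 TPM at 16 h. The late and early hours did not overlap in EG, and in R2G only the 20 h sample at 95.1 TPM fell below a 16 h sample. The course was not a steady climb. At 22 h, outside the comparison, it had 165, 207 and 185 TPM in EG but 36.7, 68.3 and 99.4 TPM in R2G. In EG it went from 66.9, 87.3 and 122 TPM at 10 h to 29.7, 29.9 and 38.2 TPM at 12 h. The difference was 1.87 (SE 0.15, adjusted p = 1.7e-20, limma). Against 16 h alone it was 0.81 and no longer reached the size of 1. Control roots of this gene, which took part in the selection, had 65.3, 74.8 and 156 TPM at 20 h and 157, 154 and 128 TPM at 24 h in EG, and 115, 84.3 and 99.3 TPM at 20 h and 63.3, 55.6 and 81 TPM at 24 h in R2G. Below the size of 1 came LOC105155871 (linkage group 2, 8804167 to 8805352) at 0.78, LOC105165085 at 0.61, LOC105172742 at 0.52 and LOC105171290 at 0.50. The value of LOC105172742 depended on the low hour, with -0.06 against 8 h alone and 1.10 against 16 h alone (adjusted p = 5.1e-10), where it was the one gene that passed.

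Between 20 and 24 h of waterlogging, 1 gene rose, beside 0.099% of all tested genes that rose and 0.0055% that fell, and it was also the only one at an unadjusted p under 0.05 in limma, with 0 lower, beside 4.2% of all tested genes higher and 4.54% lower. It was LOC105172742, which had 2.68, 3.03 and 3.04 TPM in EG and 2.60, 4.59 and 3.40 TPM in R2G at 24 h, against 1.00, 0.953 and 0.231 TPM in EG and 1.53, 0.821 and 2.38 TPM in R2G at 20 h. The 2 hours did not overlap in either genotype, and the difference was 1.02 (SE 0.15, adjusted p = 1.7e-06, limma). Without replicate 2 it was 0.87 and below the size of 1. It had 3.21, 2.46 and 3.32 TPM in EG and 5.2, 4.49 and 4.15 TPM in R2G at 28 h, and its hourly mean was about 1 TPM or below in both genotypes at 12 h and at 36 h. In control roots the same gene peaked at 24 and 48 h in EG and at 20 and 44 h in R2G.

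**Figure D3:**
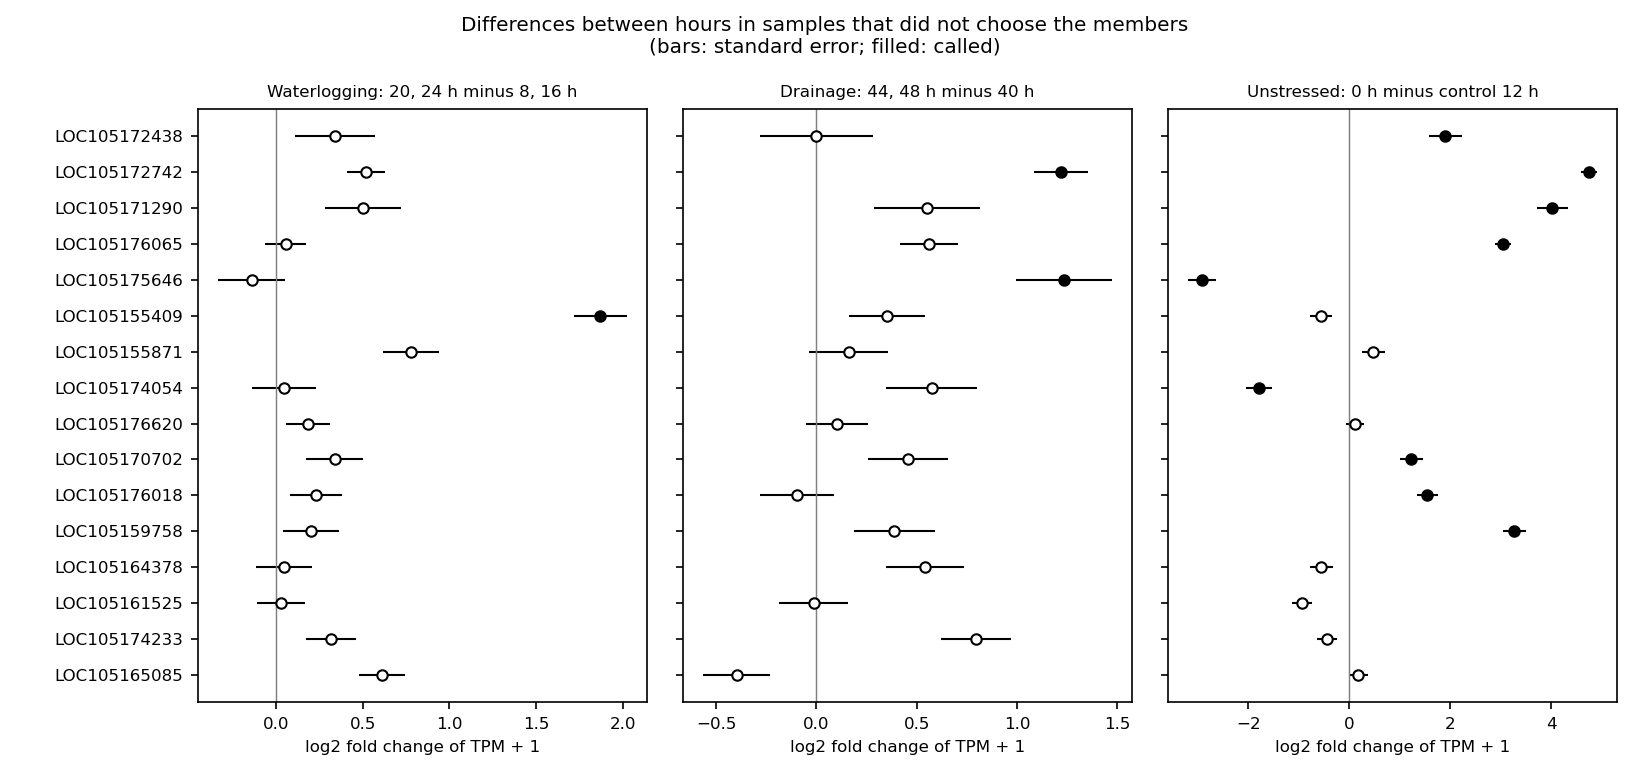
Differences on the log2(TPM + 1) scale for the 16 genes, with standard errors, in waterlogged roots at 20 and 24 h minus 8 and 16 h, drained roots at 44 and 48 h minus 40 h, and unstressed roots at 0 h minus the 12 h control. Filled points passed both limits. LOC105155409 stands alone past 1 in waterlogged roots, while LOC105172742 and LOC105175646 are past 1 in drained roots. In unstressed roots 7 genes, LOC105172742 among them, passed upward and 2 downward.

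The 12 h controls allowed a comparison of waterlogged with unstressed roots at an hour the selection did not use. None of the 16 genes rose and 6 fell, beside 1.9% of all tested genes that rose and 16.3% that fell, and the median difference was -0.71, against -0.21 over all tested genes. At an unadjusted p under 0.05 in limma, 1 was higher and 11 were lower, beside 18.5% and 44.4% of all tested genes. The 4 late-trough genes did not pass, and for LOC105172742, LOC105176065 and LOC105159758, whose 12 h control levels were near or below 1 TPM, a fall of 1 on the log2(TPM + 1) scale was hardly possible. With a pseudocount of 0.1, 8 genes were lower at 12 h, LOC105176065 among them at -1.59, and LOC105171290 was higher. Scaling the samples by median ratios moved the median of all genes at 12 h to -0.03.

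LOC105174054 had 12.5, 10.3 and 12.0 TPM in waterlogged EG roots and 4.09, 3.19 and 3.26 TPM in waterlogged R2G roots at 12 h. In control roots it had 60.7, 42.0 and 43.5 TPM in EG and 76.4, 61.2 and 39.7 TPM in R2G. Waterlogged and control samples were far apart, and the gene fell by 2.83 (SE 0.26, adjusted p = 4.1e-18, limma). LOC105170702 had 3.05, 3.13 and 3.05 TPM in waterlogged EG roots and 5.11, 5.93 and 5.47 TPM in waterlogged R2G roots, against 20.3, 21.7 and 21.8 TPM in control EG roots and 27.4, 31.2 and 49.8 TPM in control R2G roots. Its waterlogged replicates were close to each other, and it fell by 2.46 (SE 0.23, adjusted p = 1.3e-17). LOC105175646 had 2.59, 4.73 and 3.11 TPM in waterlogged EG roots and 3.47, 4.56 and 10.6 TPM in waterlogged R2G roots, all below its lowest control level of 13.5 TPM, and fell by 2.22 (SE 0.27, adjusted p = 4.7e-12).

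The other 3 genes that fell at 12 h were LOC105161525 (linkage group 5, 1138193 to 1143354) at -1.80 (SE 0.20, adjusted p = 2.1e-14), LOC105164378 at -1.30 (SE 0.23, adjusted p = 3.2e-07) and LOC105176018 at -1.17 (SE 0.21, adjusted p = 9.8e-07). LOC105176018 was at -0.97 after scaling by median ratios, below the size of 1, and LOC105164378 was at -0.96 without replicate 1. The late-trough gene LOC105171290 had the highest difference, 0.83, which did not pass, but was called higher at 1.10 with a pseudocount of 0.1 (adjusted p = 0.0050). Its levels were 5.36, 6.21 and 4.61 TPM in waterlogged EG roots and 3.55, 4.38 and 7.68 TPM in waterlogged R2G roots.

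At 4 h of waterlogging none of the 16 rose and 5 fell, beside 2.55% of all tested genes that rose and 12.1% that fell, with a median of -0.44, against -0.25 over all tested genes. At an unadjusted p under 0.05 in limma, 0 were higher and 7 lower, beside 15.1% and 47% of all tested genes. LOC105170702 was already low, with 4.07, 7.27 and 5.17 TPM in waterlogged EG roots and 5.65, 5.10 and 6.15 TPM in waterlogged R2G roots, against 22.5, 44.6 and 30.8 TPM in control EG roots and 18.6, 64.8 and 20.4 TPM in control R2G roots. It fell by 2.27 (SE 0.23, adjusted p = 2.1e-15, limma). LOC105172438 fell by 1.73 (SE 0.33, adjusted p = 2.8e-06), LOC105174054 by 1.47 (SE 0.26, adjusted p = 7.1e-07), LOC105176018 by 1.12 (SE 0.21, adjusted p = 3.3e-06) and LOC105164378 by 1.11 (SE 0.23, adjusted p = 1.5e-05). Of these, LOC105170702, LOC105174054, LOC105176018 and LOC105164378 fell at both 4 and 12 h. With a pseudocount of 0.1 LOC105176065 was also lower at 4 h, at -1.12. After scaling by median ratios 3 genes were below -1 at 4 h, with LOC105176018 at -0.87 and LOC105164378 at -0.93.

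The difference from control at 4 h of waterlogging was not the same in the 2 genotypes. Of the 16 differences from control, 7 were positive and 9 negative in EG, while all 16 were negative in R2G, and over all tested genes 37.2% were positive in EG and 30.5% in R2G. The difference between the genotypes was tested in the same model, and 7 of the 16 passed, beside 23.1% of all tested genes. For these 7 genes the 4 h control mean was higher in R2G than in EG, at 108 and 63.1 TPM for LOC105165085. Unequal controls thus enter these differences along with the waterlogged levels. LOC105161525 had 9.57, 5.45 and 7.43 TPM in waterlogged EG roots, against 3.73, 4.92 and 3.44 TPM in control EG roots. In R2G it had 1.36, 1.88 and 2.03 TPM in waterlogged roots, against 13.5, 9.05 and 12.6 TPM in control roots. The samples separated in opposite directions, and EG minus R2G was 2.93 (SE 0.39, adjusted p = 2.1e-09, limma).

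LOC105155871 had 8.04, 18.4 and 17.7 TPM in waterlogged EG roots, against 3.79, 5.86 and 4.69 TPM in control EG roots, and 2.79, 5.13 and 9.02 TPM in waterlogged R2G roots, against 6.90, 11.1 and 8.01 TPM in control R2G roots. The samples separated in EG and overlapped in R2G, and EG minus R2G was 2.01 (SE 0.46, adjusted p = 0.00022). At 12 h, 3 of the 16 differed between genotypes, beside 4.78% of all tested genes. LOC105174054 was at 1.73 (SE 0.52, adjusted p = 0.029), lower than control in both genotypes and further below it in R2G. LOC105176620 (linkage group 14, 30266 to 32168) was at -1.23 and LOC105165085 at -1.18.

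**Figure D4:**
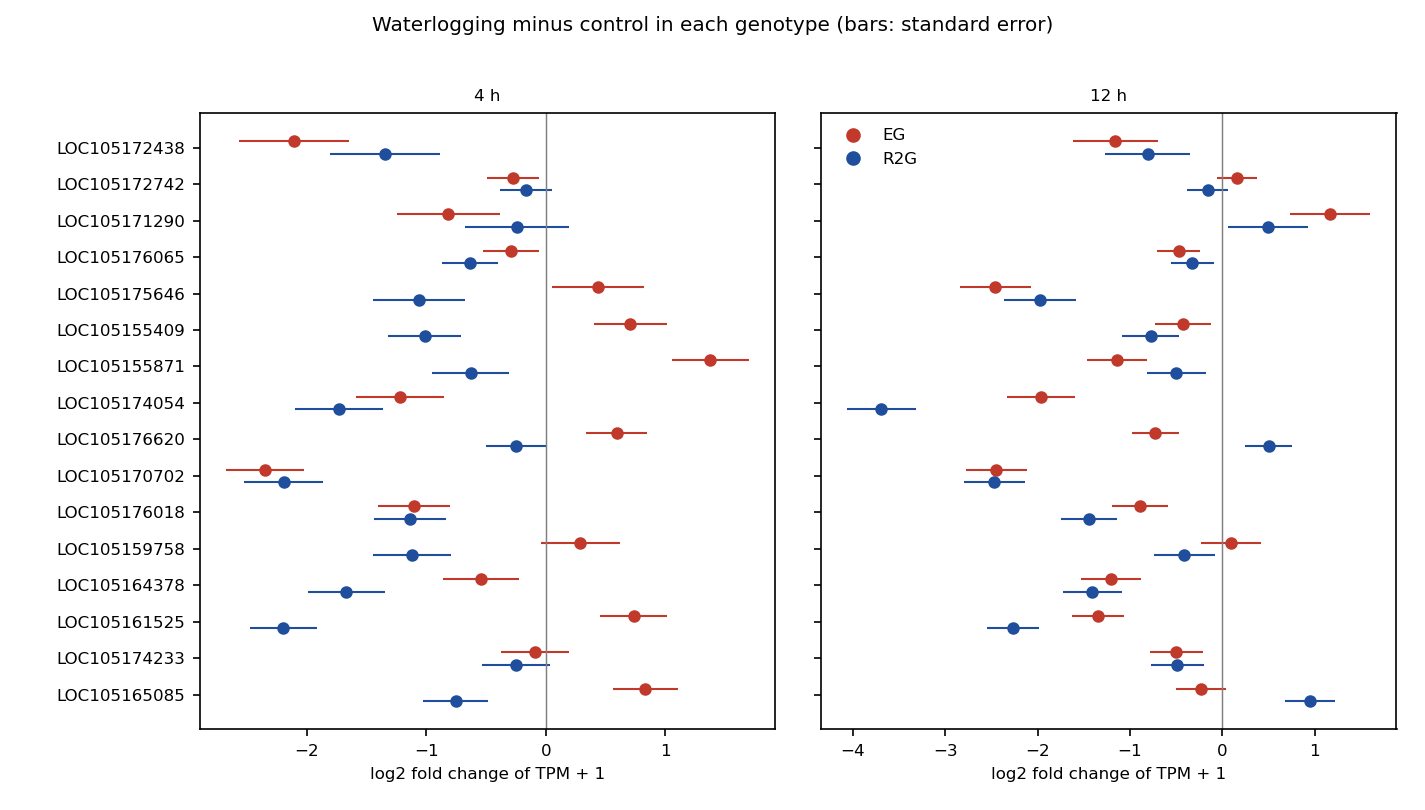
Waterlogged minus control difference on the log2(TPM + 1) scale for the 16 genes at 4 and 12 h, with EG and R2G as separate points and standard errors. At 4 h the EG points lie on both sides of 0 while all R2G points lie below it, and at 12 h LOC105174054 in R2G is lowest at -3.69.

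At the hours of the control top, 20 and 24 h, 12 of the 16 genes were lower in waterlogged than in control roots and none was higher past the limits, beside 31.4% of all tested genes that were lower and 4.43% that were higher. These controls selected the genes for being high, so the count is a description from which nothing is read. LOC105170702 had the lowest difference at -3.29, followed by LOC105174054 at -3.18, LOC105175646 at -2.79 and LOC105161525 at -2.49. LOC105155409 was the one with the highest difference, 0.82, and after scaling by median ratios it was at 1.31, higher past the limits. LOC105165085 at 0.08, LOC105171290 at -0.32 and LOC105155871 at -0.94 were the others within the limits.

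LOC105165085 had the highest mean level of the 16 genes and LOC105176620 a low one. At 20 h of waterlogging LOC105165085 had 102, 99 and 141 TPM in EG and 146, 160 and 115 TPM in R2G, against 103, 124 and 139 TPM in control EG roots and 123, 155 and 130 TPM in control R2G roots. Waterlogged and control levels overlapped in both genotypes. LOC105176620 had 0.477, 0.587 and 0.154 TPM in EG and 0.51, 0.667 and 0.622 TPM in R2G at 20 h of waterlogging, against 7.77, 4.9 and 4.06 TPM in control EG roots and 3.29, 3.22 and 2.99 TPM in control R2G roots, without overlap.

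LOC105176065 was close to 0 through most of the waterlogging. In waterlogged EG roots it had 3.71, 2.33 and 2.62 TPM at 2 h, and 0.814, 0.389 and 0.377 TPM at 4 h. In waterlogged R2G roots it had 1.23, 1.97 and 0.617 TPM at 2 h, and 0.248, 0.130 and 0.492 TPM at 4 h. No sample of either genotype passed 0.628 TPM from 6 to 36 h, and at 18 h all 6 were listed at 0. Its control roots at 24 h had 9.84, 7.22 and 10.3 TPM in EG and 1.04, 0.996 and 4.44 TPM in R2G.

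In drained roots 2 of the genes, LOC105172742 and LOC105175646, were higher late than early past the limits. Drained roots at 44 and 48 h against 40 h had 2 genes that rose and none that fell, beside 2.25% of all tested genes that rose and 0.479% that fell, and the median was 0.42, against 0.09 over all tested genes. The difference was positive for 13 of the 16, beside 64.4% of all tested genes, and at an unadjusted p under 0.05 in limma 8 were higher and 1 lower, beside 26.3% and 8.75%. The hour of the highest drained level was 44, 46 or 48 h for 10 genes in EG and 14 in R2G. Drained samples ran from 38 to 48 h, and this count was not made over all tested genes, so nothing is read from it. Time since drainage and hour of the day cannot be told apart here.

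LOC105172742 had 4.75, 5.54 and 5.71 TPM at 44 h and 8.36, 7.03 and 6.80 TPM at 48 h in drained EG roots, against 1.53, 4.05 and 2.34 TPM at 40 h. In drained R2G roots it had 4.99, 7.30 and 5.36 TPM at 44 h and 7.91, 7.44 and 8.23 TPM at 48 h, against 2.77, 1.31 and 2.02 TPM at 40 h. The hours did not overlap in either genotype, and it rose by 1.22 (SE 0.13, adjusted p = 2.0e-12, limma). LOC105175646 had 22.0, 11.8 and 16.1 TPM at 44 h and 15.9, 20.9 and 13.3 TPM at 48 h in drained R2G roots, against 2.53, 4.36 and 6.41 TPM at 40 h. In drained EG roots it had 7.87, 3.17 and 6.00 TPM at 44 h and 6.28, 7.25 and 15.5 TPM at 48 h, against 2.53, 3.54 and 5.89 TPM at 40 h. The hours were apart in R2G and overlapped in EG, and the gene rose by 1.23 (SE 0.24, adjusted p = 3.5e-05), but by 0.93 without replicate 1, below the size of 1. LOC105174233 (linkage group 11, 12855184 to 12859733) was at 0.79 and LOC105165085 at -0.40, the lowest, and neither passed.

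Against the controls at 44 and 48 h, which selected the genes, 6 were lower in drained roots and none was higher, beside 8.13% and 2.47% of all tested genes, and nothing is read from this count. In 14 of the 16 genes the drained difference was nearer to 0 than the waterlogged one at 20 and 24 h, beside 73.5% of all tested genes. Both differences use controls that selected the genes, so nothing is read from that count either. LOC105172742 was at -0.08 and LOC105175646 at -1.60. LOC105155871 was at -1.50, LOC105174054 at -1.41, LOC105172438 at -1.26, LOC105176065 at -1.22 and LOC105161525 at -1.04.

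In the 4 h to 12 h comparison of the controls, 1 of the 16 genes differed between the genotypes, beside 3.95% of all tested genes. It was LOC105165085, at -0.49 in EG and 1.22 in R2G. None of the 16 differed between the genotypes past both limits in waterlogged roots at 20 and 24 h against 8 and 16 h, beside 0.314% of all tested genes. LOC105172742 was the single one with an unadjusted p under 0.05, at -0.82 for EG minus R2G (SE 0.22, adjusted p = 0.041), and its size was under 1.

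EG roots labelled as wilting, from plants that the study's methods describe as dead, were compared with roots of surviving EG plants, both at 48 h, 12 h after drainage. Of the 16 genes 1 was higher and 1 was lower in the wilting plants, beside 2.36% and 2.67% of all tested genes. LOC105159758 had 4.22, 3.59 and 6.87 TPM in wilting roots, against 1.17, 1.72 and 0.712 TPM in the other drained roots. The plants did not overlap, and the difference was 1.41 (SE 0.33, adjusted p = 0.0015, limma). LOC105174054 had 28.3, 13.4 and 6.65 TPM in wilting roots, against 25.0, 39.7 and 66.5 TPM in the other drained roots, with an overlap, and it fell by 1.49 (SE 0.37, adjusted p = 0.0031). Both calls were lost without replicate 3 of each group, where the differences were 1.01 and -0.66, and when the model held the 6 compared samples only (adjusted p = 0.074 and 0.16). Without replicate 1, 5 genes were called.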

How the data were processed

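RNA was sequenced from roots of 195 sesame plants in 65 conditions of 3 replicates. The authors checked reads with FastQC, trimmed them with Trimmomatic 0.32, mapped them to sesame genome v1.0 with STAR, ran featureCounts on uniquely matched reads and converted the result to TPM, the deposited unit, which keeps no read counts. Read counts were not used here, and no count model was run.

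Groups came from the sample labels. The 18178 genes whose mean TPM reached 1 were tested as log2(TPM + 1) with limma 3.58.1 in R 4.3.3 (lmFit, then contrasts.fit, then eBayes with its trend option), in one model with the 65 conditions as groups. Benjamini-Hochberg adjustment ran over all tested genes. Fold changes on this scale understate those of low genes. Tables and plots were made with Python 3.11.15. The late against early waterlogging comparison was tested on simulated data over the same genes, where all 200 genes given a log2 change of 2 came back, with 0 false calls. Recovery of changes smaller than 2, such as those near the limit of 1, was not tested. The 200 genes were drawn only from those with a mean log2(TPM + 1) above 1, so recovery at lower levels was not tested. LOC105176065, with a mean of 1.09 TPM, is near that level or below it. Apart from the added change, each simulated gene had 1 mean in all conditions, with normally distributed spread. The labels name no batch, and p-values measure the spread between single plants.

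The genes and the lists were chosen with earlier results of these data known. The text names genes by the size of their control span and the largest called changes in each comparison, and gives the other members by counts or values. The RefSeq gene table gave positions, and no descriptive names, for 16 of 16 genes. The planned lists by protein pattern and promoter motif needed sequence tables that were not used here. The alternatives tried were median-ratio scaling, a pseudocount of 0.1, keeping all low genes, the replicate number as a block, only the compared samples in the model, other hours and leaving out each replicate.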

Additional observations from a re-analysis of the deposited data

Results flagged for a closer look

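In 11 cases the difference between EG and R2G under one contrast passed both limits in a limma interaction test, all as EG minus R2G on the log2(TPM + 1) scale. Each is given as values, and its cause was not tested. The processing alternatives were not run for these 11 differences, which come from the main scale alone.

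At 4 h of waterlogging against control, 7 genes differed, beside 23.1% of all tested genes. The 4 h control mean of each of these 7 was higher in R2G than in EG, and it enters the difference. LOC105161525 differed by 2.93, with 0.74 in EG and -2.20 in R2G (adjusted p = 2.1e-09). LOC105155871 differed by 2.01, with 1.38 in EG and -0.63 in R2G. LOC105155409 differed by 1.72, with 0.71 in EG and -1.01 in R2G. LOC105165085 differed by 1.59, with 0.83 in EG and -0.75 in R2G. LOC105175646 differed by 1.5 and LOC105159758 by 1.41, both positive in EG and negative in R2G. LOC105164378 differed by 1.13, with -0.54 in EG and -1.67 in R2G.

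At 12 h of waterlogging against control, 3 genes differed, beside 4.78% of all tested genes. LOC105174054 differed by 1.73, with -1.96 in EG and -3.69 in R2G. LOC105176620 differed by -1.23, with -0.72 in EG and 0.50 in R2G. LOC105165085 differed by -1.18, with -0.23 in EG and 0.95 in R2G, so this gene had the opposite sign of difference at 4 and 12 h.

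Between the controls at 4 and 12 h, LOC105165085 differed by -1.72. It had 44.1, 61.1 and 84.1 TPM at 4 h, against 80.3, 94.2 and 84.8 TPM at 12 h in EG, and 101, 104 and 119 TPM at 4 h, against 28.8, 47.2 and 69.4 TPM at 12 h in R2G. The same controls enter its differences at 4 and 12 h of waterlogging.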

How the results depend on the processing

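No alternative turned round the direction of a called gene. Among differences that did not pass, LOC105172742 in late against early waterlogging was at -0.06 with 8 h only, LOC105164378 was at -0.12 with 24 h only and 0.21 with 20 h only, and LOC105161525 in drained roots was at 0.08 with 38 and 40 h and -0.12 with 48 h only. In 83 of 95 recomputed counts of genes past the limits the count stayed within 1.5 times its value. With a pseudocount of 0.1, the late against early waterlogging comparison called 2 genes, the controls at 4 against 12 h called 6 and the genotype difference in the late rise called 1 (LOC105172742). The same pseudocount called LOC105176065 higher in drained roots (1.91). With 8 h only or 24 h only, the late waterlogging comparison called 2 genes. The count at 24 against 20 h of waterlogging was 0 to 1 when 1 replicate was left out. In drained roots it was 1 to 2 when 1 replicate was left out, and 4 with 38 and 40 h as the low hours, which added LOC105174054 (1.23) and LOC105174233 (1.28). Median-ratio scaling left 3 genes at 4 h of waterlogging. The wilting comparison called 0 to 5 genes when 1 replicate was left out, and 0 with only the compared samples in the model.

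Calls of single genes were lost in 17 cases, with the sign kept in each. Median-ratio scaling moved the median of all genes in waterlogging minus control at 20 and 24 h to -0.08, against -0.51 as deposited. At 0 h it called LOC105161525 lower (-1.15) and left LOC105170702 at 0.92. With the replicate block, 1 gene was called in the late waterlogging comparison, and no call of the 16 genes changed. The paper describes a randomized block layout with 3 replicates, and whether the replicate number names the block is not given. Same-numbered samples deviated together with a mean r of 0.0152, against -0.0076 for different numbers. In the comparison of 0 h with the 12 h control the mean r was 0.102. On average 99 of 195 samples were closest to their own number. The number was not taken as a pairing in the main model. Read counts and totals were not used here, so no counting error is given for low levels such as those of LOC105176065.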

Other observations

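The waterlogged hours 6, 10, 14, 18 and 22 h had no control of their own, while 8, 12, 16, 20 and 24 h had one. LOC105174233 was lower at the hours without a control by 0.83 in EG and 1.06 in R2G on the log2 scale, as a difference of means with no test. In waterlogged EG roots its mean level was 2.87 TPM at 10 h, 8.36 TPM at 12 h, 3.05 TPM at 14 h and 10.7 TPM at 16 h. In waterlogged R2G roots it was 1.34 TPM at 10 h, 8.58 TPM at 12 h, 3.53 TPM at 14 h and 7.21 TPM at 16 h. The level thus went up and down between neighbouring hours in both genotypes. Over all tested genes the median of the same difference was 0.06 in EG and 0.06 in R2G. Of the 16 genes, 4 were lower at the hours without a control in both genotypes, a count not made over all tested genes.

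Over the 15 waterlogged conditions, the mean pairwise correlation of hourly means was 0.34 among the 16 genes in EG and 0.19 in R2G, against 0.04 in EG and 0.08 in R2G among all tested genes. The points share libraries and the total of each library, and the values are a description.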
